A study of Arabidopsis thaliana with 20 samples.

Results

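The MYB transcription factor genes of Arabidopsis thaliana are described here by where 3 GFP-tagged subunits of a chromatin remodelling complex were found around their start sites. Members were every nuclear protein-coding gene of the RefSeq annotation whose name or synonym was MYB followed by a number, which gave 125 genes of 27444, 116 by their name and 9 by a synonym (for example AS1, which is MYB91, and RAX2, which is MYB38). The naming rule takes no measured value, although the family was picked with earlier results of these data known. The data were ChIP-seq with an anti-GFP antibody on 14-day-old seedlings grown in short days, deposited as 12 peak lists, 2 biological replicates for each of 6 groups. BCL7A-GFP was driven by the BCL7A promoter in bcl7a plants that also carried brm-1 (BCL7A in brm-1) or did not (BCL7A), and BCL7B-GFP by the BCL7B promoter in bcl7b plants with brm-1 (BCL7B in brm-1) or without it (BCL7B). BRM-GFP was driven by the BRM promoter in brm-1 plants that also carried bcl7a and bcl7b (BRM in bcl7ab) or did not (BRM). Every group thus carried a mutation in the endogenous gene of its tagged protein, and no group was wild type. GFP-free control plants were not among the lists used, so what the antibody pulls down at a single gene without a tag was not measured, and 8 of the 20 samples in the series were not analysed here either.

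MYB proteins of plants carry a DNA-binding domain of repeated helix-turn-helix units, and most act as activators or repressors of a narrow set of target genes. The family is known for switching on phenylpropanoid, flavonoid and glucosinolate synthesis, for secondary wall and cuticle formation, for the fates of epidermal cells, and for hormone and stress responses. BRM is an ATPase of SWI/SNF complexes, which use ATP to slide or evict nucleosomes, and BCL7A and BCL7B are homologous small subunits of those complexes. A gene was called bound in a library when a peak summit lay within 2 kb of its annotated transcription start site (TSS), and bound in a group when this held in both replicates. Where several summits lay in the window, the one with the highest fold enrichment over the local background was used. Its rank was the percentile of that fold enrichment among all nuclear peaks of the same list, 100 being the strongest. Offsets are in bp from the TSS and are negative upstream. No summit means that no peak passed the caller's limit, not that the protein was absent, and the read number behind each list was not used here.

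A few facts of the lists bear on every value. The lists held 14770 to 18870 nuclear peaks. The 8 BCL7 lists ended at a −log10 q of 2.03 to 2.25, whereas the 4 BRM lists went down to 0.475 to 0.577 and had wider peaks (medians of 799 to 841 bp, against 519 to 542 bp), so a comparison of BRM with a BCL7 protein carries that difference, and a comparison of a mutant with its own reference does not. Peaks on organelle genomes were in the BCL7 lists only (41 to 61 a library) and were left out. With 2 libraries against 2, an exact permutation test cannot give a p below 0.333.

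BCL7A, BCL7B and BRM were found at about 4 to 5 in every 10 MYB genes. BCL7A in brm-1 was at 63 and 61 MYB genes in its replicates, and BCL7A at 61 and 61. BCL7B in brm-1 was at 51 and 51, and BCL7B at 56 and 58. BRM in bcl7ab was at 57 and 62, and BRM at 69 and 62. The replicate counts of a pair of groups overlapped for BCL7A and for BRM and did not for BCL7B.

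**Figure D1:**
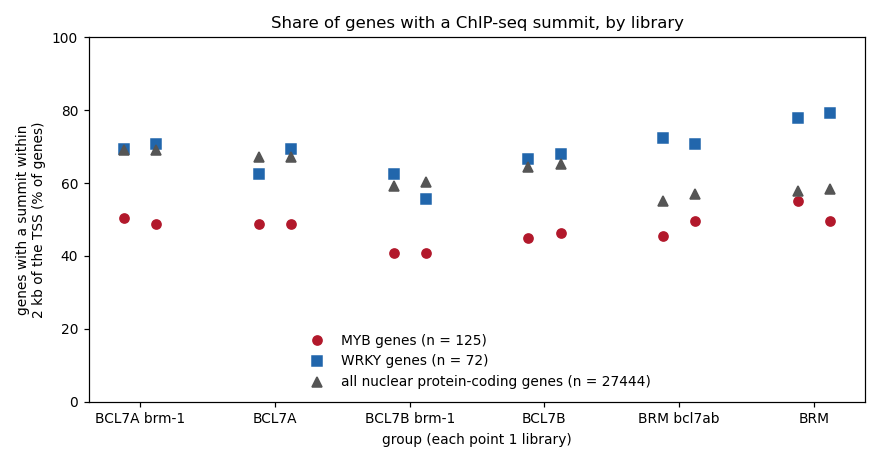
Share of genes (percent) with a summit within 2 kb of the TSS, for MYB genes, WRKY genes and all nuclear protein-coding genes, with 1 point per library and the mutant group left of its reference for each protein. MYB genes lay between 40.8% and 55.2% in the 12 libraries, below all genes in each library and below WRKY genes in each library.

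Bound in both replicates were 57 MYB genes for BCL7A in brm-1 (45.6%, against 65.8% of all genes), 56 for BCL7A (44.8%, against 63.6%), 45 for BCL7B in brm-1 (36%, against 55.3%) and 53 for BCL7B (42.4%, against 61.1%). For BRM the shares lay closer together, with 53 MYB genes in bcl7ab (42.4%, against 50.2% of all genes) and 59 in BRM (47.2%, against 52.6%). The spacing of genes goes with these shares. MYB genes stand apart from their neighbours: another TSS lay within 2 kb of 25.6% of them, against 58.5% of all genes, and the median distance to the next gene upstream was 2686 bp, against 886 bp. When each summit was given only to its nearest TSS, the MYB share stayed below that of all genes for BCL7A (35.2%, against 44.0%) and BCL7B (32.0%, against 42.2%), but for BRM it turned round to 40.8%, against 36.6%. Among genes with no other TSS within 2 kb, 93 of them MYB genes, BCL7A was at 40.9% of the MYB genes and 55.5% of all, and BRM at 47.3% and 48.9%. The lower BRM share of MYB genes therefore rests on how summits are assigned, and the BCL7 shares were lower under both assignments.

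For the 72 WRKY genes, another large plant family of transcription factors, 34.7% had another TSS within 2 kb, between MYB genes and all genes (median distance to the nearest other TSS 2739 bp for MYB genes and 2672.5 bp for WRKY genes, against 1674 bp for all). Their shares were 55.6% to 79.2% in the 12 libraries. All 3 proteins, in the groups without a second mutation, were at 38 MYB genes (30.4%), against 37 WRKY genes (51.4%) and 44.3% of all genes. Another 15 MYB genes (12%) were bound in both replicates by BRM alone, against 4.94% of all genes. Both BCL7 proteins but not BRM bound 12 (9.60%) in this sense, against 14.1%. A summit in 1 replicate counts as not bound here: MYB4, MYB11, MYB26, MYB67, MYB96 and MYB119 of the second class had such a BRM summit. Of the first class, MYB18 and MYB60 had BCL7 summits of this kind. These are descriptions of the families, without a test.

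Over the 12 libraries, 91 MYB genes (72.8%, against 80.3% of all genes) had a summit in at least 1, and 32 (25.6%, against 35.1%) in all 12. The other 34 (27.2%, against 19.7%) had none. Among those 34 were genes whose products act in flowers, gametophytes or seeds: MYB35 of the tapetum, MYB24 of the stamen, MYB97 of pollen, MYB115 of the embryo, MYB64 of the female gametophyte and MYB123 (TT2), which drives proanthocyanidin synthesis in the seed coat. Regulators of seedling tissues were among them too, including MYB0 (GL1) of trichomes, MYB66 (WER) of root hair patterning, MYB36 of the Casparian strip, MYB46, a master switch of secondary walls, MYB29 of aliphatic glucosinolates and MYB75 and MYB90 of anthocyanins. Of the 88 MYB genes with an entry in 1 of 12 functional lists, 29 had no summit in any library and 23 had one in all 12. The 37 others had 5 and 9.

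Summits lay farther upstream at MYB genes than over all genes, without a test of the difference. The median offset of the bound MYB genes was −578 bp in BCL7A in brm-1, −548 bp in BCL7A, −602 bp in BCL7B in brm-1 and −488 bp in BCL7B, whereas that of all bound genes lay at −52, −48, −33.5 and −42 bp. Within 200 bp of the TSS were 15.6% to 21.4% of the MYB genes bound in the BCL7 groups, against 47.3% to 48.2% of all genes. WRKY genes lay between, with medians of −246 to −152 bp. The BRM summits lay nearer to the TSS, with MYB medians of −132 bp in bcl7ab and 0.5 bp in BRM, against 65.5 and 130 bp for all genes. The size of the BCL7 offset rests on the assignment, since with nearest starts only the MYB medians were −246 bp in BCL7A in brm-1, −362 bp in BCL7A, −510 bp in BCL7B in brm-1 and −249 bp in BCL7B. Best summits at MYB genes were also placed by gene part (56 and 58 in BCL7B, 69 and 62 in BRM). Over both libraries, 85 of the BCL7B summits lay upstream of the gene and 9 in coding exons, against 60 and 35 in BRM. In bcl7ab, with 57 and 62 summits, 61 and 22 did so. Gene parts were not counted over all genes, whose medians also lay farther downstream in BRM (130 bp) than in BCL7B (−42 bp). BRM and BCL7 lists also differ in peak limit and width. Replicates placed the BCL7 summits of a MYB gene a median of 32 to 44 bp apart, and the BRM summits 51 bp apart in bcl7ab and 63 bp in BRM.

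**Figure D2:**
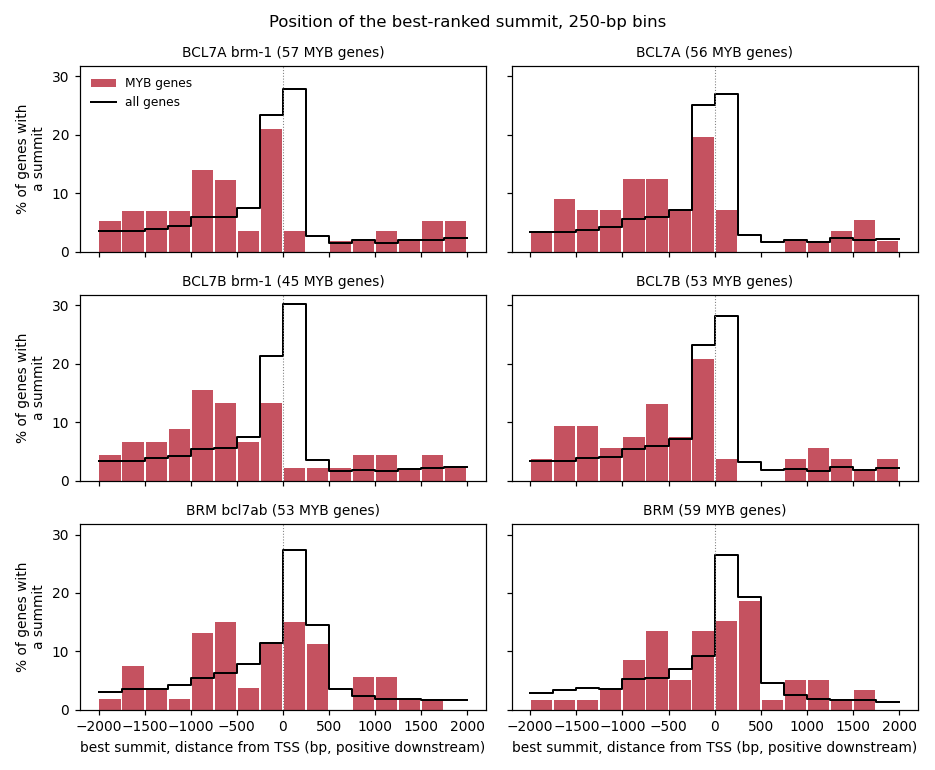
Offset of the best-ranked summit from the TSS (bp, negative upstream) for MYB genes and all genes, by group, with the share of bound genes (percent) in each 250-bp bin on the vertical axis, bars for MYB genes and a line for all genes. MYB genes spread far upstream in the BCL7 groups, where all genes peak close to the TSS.

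The functional lists of MYB genes are given by how many members were bound. These lists were written from textbook roles, with earlier results of these data known. Their counts are small, no list was tested, and they stand beside 63.6%, 61.1% and 52.6% of all genes and 44.8%, 42.4% and 47.2% of MYB genes with BCL7A, BCL7B and BRM. The stress and nutrient response list held 12 genes: 7 had BCL7A, 7 had BCL7B and 8 had BRM, and 2 had no summit in any library. Its members MYB15, which acts in cold and in defence lignification, MYB2, an ABA and drought regulator, and MYB44, MYB70 and MYB77, related regulators of ABA and auxin responses, were bound in all 12 libraries. The best summit of MYB2 was nearer to the start of AT2G47210 in every library. At MYB44 the proteins stood far apart in rank: 98.3 and 98.4 for BRM in bcl7ab and 98.6 and 98.8 for BRM, but 11.1 and 24.0 for BCL7A in brm-1 and 5.10 and 23.8 for BCL7A. The 4 subgroup 4 repressors of phenylpropanoid genes (MYB3, MYB4, MYB7 and MYB32) all had BCL7A, 3 had BCL7B and 3 had BRM.

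Of 14 secondary wall regulators, 4 had BCL7A, 4 had BCL7B and 5 had BRM, while 6 had no summit in any library. Cuticle, wax, suberin and endodermis regulators numbered 13, of which 5 had BCL7A, 5 had BCL7B, 4 had BRM and 5 had none. Flavonoid and anthocyanin regulators numbered 8, of which 2 had each protein and 3 had none. Of the 6 glucosinolate regulators, 2 had BCL7A, 3 had BCL7B and 2 had BRM. In the GAMYB group of 7, whose members MYB33 and MYB65 act in anthers and are targets of miR159, the same 4 genes (MYB33, MYB65, MYB101 and MYB120) were bound in all 12 libraries and the other 3, MYB81, MYB97 and MYB104, in none. The epidermal list of 5 had 2 genes with each protein and 2 with no summit. Of 6 meristem, boundary and leaf genes, 2 had BCL7A, 1 had BCL7B and 3 had BRM. Of 6 stamen and pollen genes the counts were 2, 3 and 3, and of 5 female gametophyte and embryo genes they were 3, 3 and 1. With nearest starts only, the counts of these 2 lists were 1, 2 and 2, and 2, 2 and 0. Secondary wall counts were then 2, 2 and 5 and cuticle counts 3, 3 and 3, while GAMYB counts stayed at 4. List counts thus depend on the assignment. AS1 (MYB91), which patterns the leaf, was bound in all 12 libraries, with ranks of 93.7 and 90.2 for BCL7A in brm-1 and 92.2 and 91.9 for BCL7A. The stomatal lineage pair MYB124 (FLP) and MYB88 was bound by each of the 3 proteins.

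**Figure D3:**
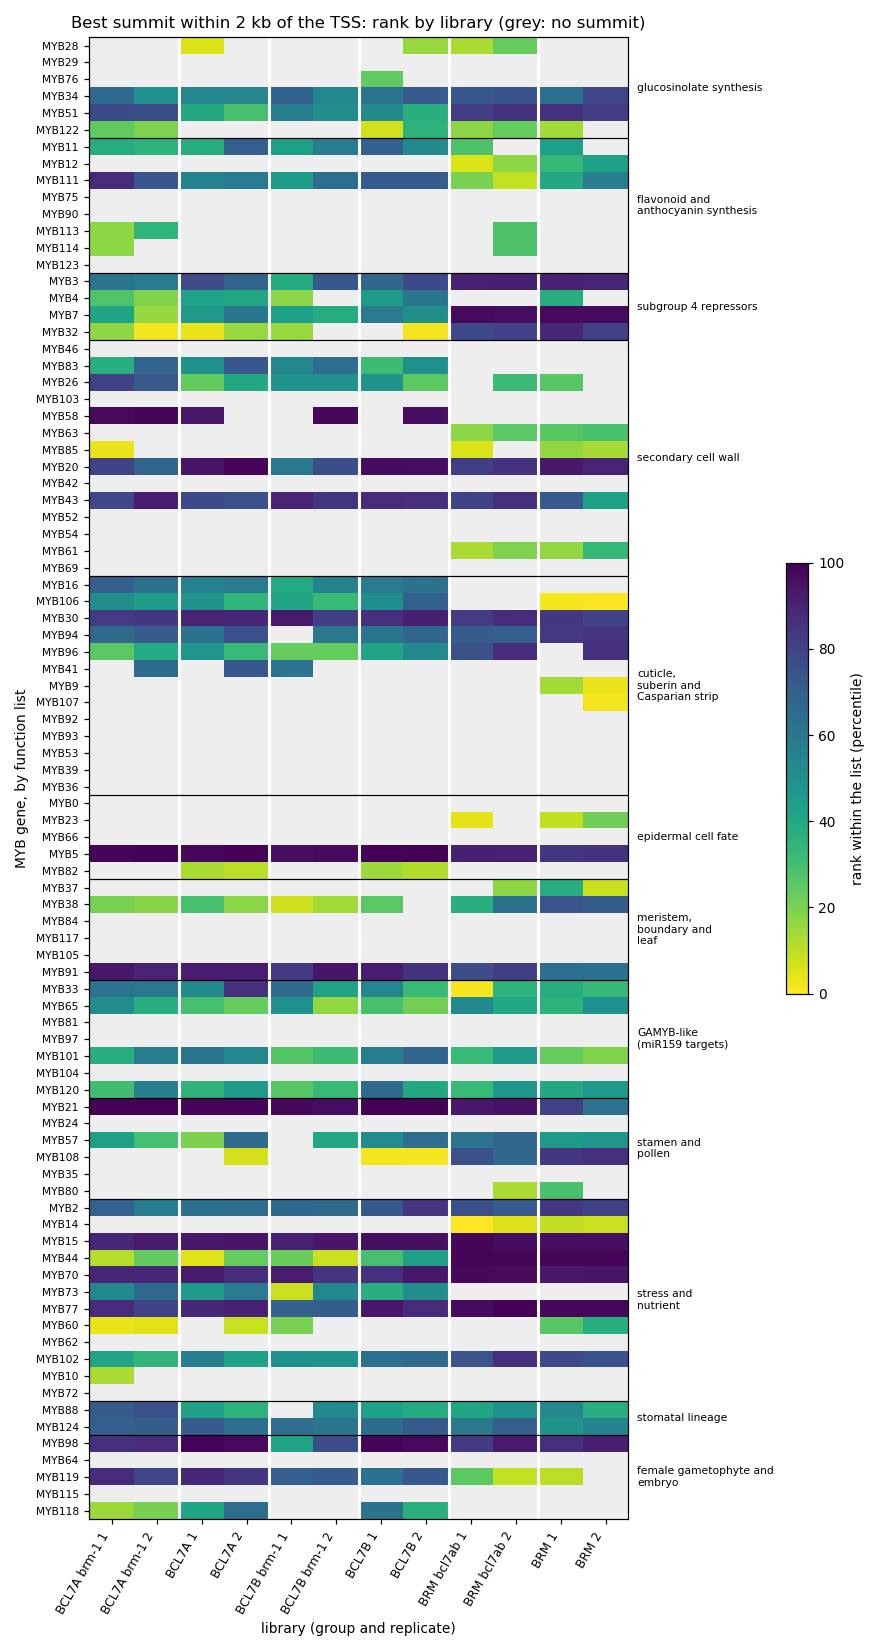
Rank of the best summit within 2 kb of the TSS (colour, percentile within the list, grey where no summit was called) for the 88 MYB genes of the 12 functional lists, 1 gene per line and 1 library per column, each mutant group left of its reference. Stress and nutrient genes are mostly coloured, with 2 of 12 grey throughout, while 6 of 14 secondary wall genes are grey throughout.

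The 5 genes with the highest mean rank over the groups without a second mutation were MYB15 (95.4), MYB20 (95.0), MYB98 (94.9), MYB6 (94.3) and MYB5 (94.2). MYB15 (AT3G23250, chr3:8309209-8310910, plus strand) varied little between genotypes. Its ranks were 89.1 and 92.9 for BCL7A in brm-1 against 93.6 and 94.2 for BCL7A, 91.0 and 93.9 for BCL7B in brm-1 against 96.3 and 96.0 for BCL7B, and 98.1 and 96.6 for BRM in bcl7ab against 96.4 and 96.1 for BRM. The genotypes did not overlap for any of the 3 proteins, with slightly lower ranks in brm-1 and slightly higher ones in bcl7ab. All its summits lay between −153 and −76 bp. MYB5 (AT3G13540, chr3:4419960-4421751, plus strand), which acts in trichomes and the seed coat, had ranks of 98.5 and 98.8 for BCL7A in brm-1 and 98.0 and 99.0 for BCL7A, and its summits lay between −624 and −377 bp in all 12 libraries. MYB98 (AT4G18770, chr4:10311030-10313104, plus strand), a regulator of synergid cells, was reached only from far upstream, at −1666 to −1468 bp, where the TSS of RLP51 was nearer in every library, so its values may belong to RLP51 as well as to MYB98.

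The DNA just before the start is shown for 4 genes with summits in it or just past the start, and on which the comparisons below turn: MYB20, whose BCL7 ranks were lower in brm-1, MYB82, which lost both BCL7 summits, MYB60, which lost its BRM summits, and MYB15, which kept all. Each run holds the 250 bases that end at the base before the TSS (TAIR10.1, RefSeq), 5′ to 3′ on the gene's strand: chr1:24676871-24677120 plus for MYB20, chr5:21344107-21344356 minus for MYB82, chr1:2820479-2820728 minus for MYB60 and chr3:8308959-8309208 plus for MYB15. Capitals mark matches, on either strand, to 1 of 5 searched words. These were the repeat word GAGAGA, the G-box word CACGTG, the telo-box word AAACCCTA, the core promoter word TATAAA and, for the element that MYB proteins bind in lignin genes, ACCTACC. The TTTATA in MYB15 and the first capitals of MYB20 are TATAAA on the other strand.
MYB20: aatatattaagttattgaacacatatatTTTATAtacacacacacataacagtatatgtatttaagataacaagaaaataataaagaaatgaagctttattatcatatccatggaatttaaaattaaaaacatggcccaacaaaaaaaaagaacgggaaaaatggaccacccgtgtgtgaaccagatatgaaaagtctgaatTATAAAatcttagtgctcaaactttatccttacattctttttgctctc
MYB82: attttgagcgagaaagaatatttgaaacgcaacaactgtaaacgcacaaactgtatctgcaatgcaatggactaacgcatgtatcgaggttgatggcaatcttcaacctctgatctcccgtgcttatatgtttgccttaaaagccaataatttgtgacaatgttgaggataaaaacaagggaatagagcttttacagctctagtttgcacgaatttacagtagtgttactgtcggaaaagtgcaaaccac
MYB60: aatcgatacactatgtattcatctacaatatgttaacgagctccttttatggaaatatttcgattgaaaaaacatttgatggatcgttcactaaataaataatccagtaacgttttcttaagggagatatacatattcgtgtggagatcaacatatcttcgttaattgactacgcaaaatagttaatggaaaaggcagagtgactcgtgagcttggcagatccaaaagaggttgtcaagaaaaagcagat
MYB15: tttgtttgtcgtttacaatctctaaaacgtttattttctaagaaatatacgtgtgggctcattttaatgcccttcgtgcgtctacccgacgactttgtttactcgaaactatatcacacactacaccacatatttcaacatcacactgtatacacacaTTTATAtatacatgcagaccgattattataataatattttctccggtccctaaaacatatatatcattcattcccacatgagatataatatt
No 2 matches overlap in these runs, and MYB82 and MYB60 hold none of the 5 words.

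Over the 300 bases from 250 before to 50 after the start, GAGAGA was found at 36% of MYB genes and 29.2% of all genes, TATAAA at 62.4% and 52.1%, and CACGTG at 8.00% and 7.68%. AAACCCTA was found at 2.40% of MYB genes and 6.22% of all genes, and ACCTACC at 1.60% and 1.38%. Median GC content was 31% at MYB genes and 32% at all genes. The matches are descriptions of the letters and say nothing of the factors that bind them.

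The first mutant comparison asks whether BCL7A summits near MYB genes are still called in brm-1. Most MYB genes with BCL7A kept a summit in brm-1, and 2 lost it. Summit calls and within-list ranks cannot show a fall in signal shared by a whole list. The study compared occupancy itself and reported reduced BCL7A and BCL7B binding at many sites in brm-1. The number of bound genes was 62.0 ± 1.41 in brm-1 and 61.0 ± 0 without it (SD, n = 2 each; ratio 1.02, exact permutation test, two-sided p = 1). The ratio went to 0.880 with a 1 kb window, 0.983 with peaks of a −log10 q of at least 5, 0.948 with nearest starts only and 0.975 with equal peak numbers, so it carries no direction. Of the 56 genes bound by BCL7A, 52 were bound in both brm-1 libraries, which is 92.9% (95% Clopper-Pearson interval 82.7% to 98.0%, against 95.0% of all bound genes). In brm-1, 2 genes had lost the summit (3.57%, against 1.56%) and 2 of the 59 genes without BCL7A had gained one (3.39%, against 6.14%).

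Both lost genes had weak summits at the start. MYB82 (AT5G52600, chr5:21343102-21344106, minus strand), which acts in trichome development, had no BCL7A summit in either brm-1 library, against ranks of 12.8 and 10.2 without brm-1, at +63 and −110 bp. MYB68 (AT5G65790, chr5:26322817-26324609, plus strand), a root-expressed gene, likewise had none, against ranks of 40.8 and 17.3 at +39 and +29 bp. The gained genes were MYB113, an anthocyanin regulator, with ranks of 17.1 and 34.4 in brm-1, and MYB122, a regulator of indolic glucosinolates, with 24.5 and 19.5 at summits nearer to the start of AT1G74070. At MYB113 the summit lay 1825 and 1655 bp past the start, towards its neighbour MYB114, and in the first brm-1 replicate the same summit counted for both genes.

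Among the 52 genes with a BCL7A summit in all 4 libraries, both brm-1 ranks were above both others at 14 (26.9%, against 24.6% of all genes) and below both at 11 (21.2%, against 22.1%), shares close to the background. The median change was −0.02 percentile points, within the SD of 0.934 over the 4 library pairs, against 0.33 for all genes, and without brm-1 replicate 2 it was 0.929. The pairs share libraries, so here and in the comparisons below this SD does not measure replicate error. MYB6 (AT4G09460, chr4:5992908-5994258, plus strand) stood at ranks of 52.4 and 58.2 in brm-1 against 96.9 and 91.4 without it, with fold enrichments of 3.03 and 3.23 against 6.15 and 5.15. MYB20 (AT1G66230, chr1:24677121-24678580, plus strand), a lignin regulator, stood at 79.5 and 67.3 in brm-1 against 94.9 and 98.7, and its summits lay within 38 bp of the TSS in all 4 libraries. Higher in brm-1 were MYB51, a regulator of indolic glucosinolates, at 77.7 and 76.1 against 39.1 and 29.6 and at −1142 to −1034 bp, and MYB26, which controls wall thickening in the anther, at 80.4 and 72.0 against 24.1 and 39.8 at its 3′ end. MYB67, with summits past its 3′ end, had 58.6 and 60.6 in brm-1 against 7.99 and 29.8, and MYB88 had 71.0 and 74.8 against 42.7 and 35.2. MYB118, an embryo regulator, had 15.1 and 20.5 in brm-1 against 40.8 and 64.3. Lack of overlap was part of the rule that chose these genes. The summits of MYB26 and MYB67 were nearer to the starts of AT3G13882 and AT3G12710 than to their own. At MYB88 the best summits lay at −1916 and −1956 bp in brm-1, nearer to the noncoding RNA AT2G04335. Without brm-1 they lay at +184 bp and, again nearer to AT2G04335, at −1980 bp, so its ranks compare different sites in part. Of the 4 subgroup 4 repressors, 3 were lower in both brm-1 libraries, MYB7 by the most at 41.1 and 15.9 against 45.9 and 60.7.

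**Figure D4:**
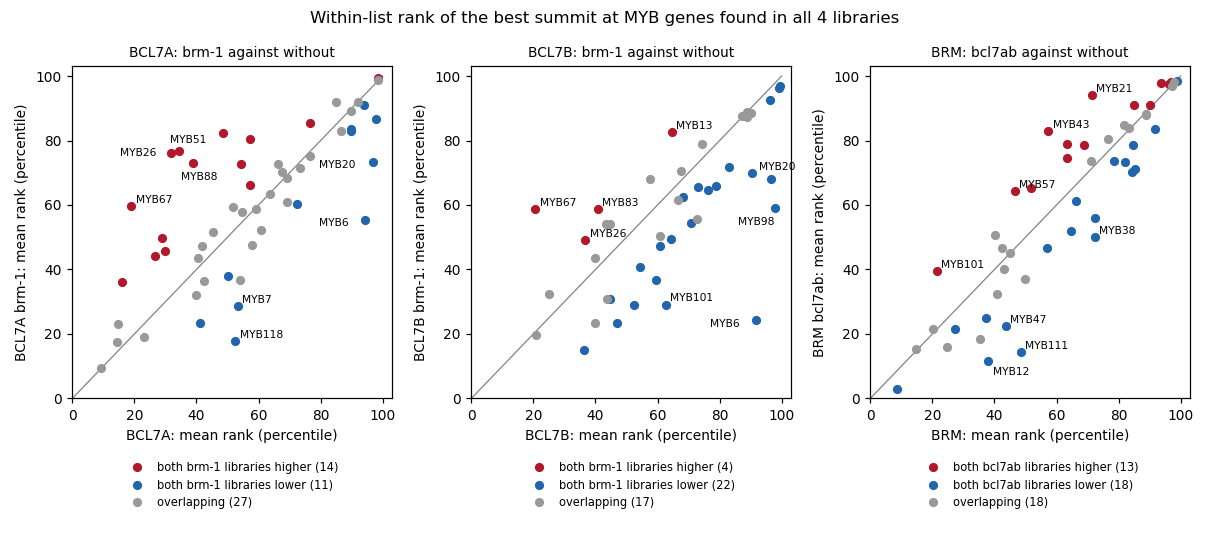
Mean within-list rank (percentile) of MYB genes bound in all 4 libraries of a comparison, mutant on the vertical and its reference on the horizontal axis, with the line of equality. Red points (14, 4 and 13 for BCL7A, BCL7B and BRM) had both mutant ranks above both others, blue points (11, 22 and 18) both below, and the named genes changed most.

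BCL7B lists were shorter in brm-1 (14922 and 15300 nuclear peaks, against 17429 and 17711), and the number of MYB genes with BCL7B was lower by a share close to that of all genes. It was at 51.0 ± 0 MYB genes in brm-1 and 57.0 ± 1.41 without it (SD, n = 2 each; ratio 0.895, exact permutation test, two-sided p = 0.333, the smallest possible). The same ratio over all genes was 0.923, and with the lists cut to equal peak numbers it was 0.981 for MYB genes and 1.00 for all genes. Of 53 bound genes, 43 were bound in both brm-1 libraries, which is 81.1% (68.0% to 90.6%, against 84.4% of all genes), 5 in 1 of them and 5 in neither (9.43%, against 7.21%). Of 64 genes without BCL7B, 1 had gained it (1.56%, against 3.64%), MYB55, with ranks of 4.84 and 4.68. Those lost were MYB56, MYB118, MYB122, MYB82 and MYB108. MYB56 (BRAVO), which restrains divisions of the quiescent centre, had no summit in brm-1 against ranks of 50.9 and 52.3 without it. MYB118 had none in brm-1 against 62.5 and 36.3, at −275 and −278 bp. MYB82 again had none in brm-1, against 14.7 and 11.4, so that it lost both BCL7 proteins.

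Where BCL7B was present in all 4 libraries, 43 genes, its rank was lower in both brm-1 libraries than in both others at 22 (51.2%, against 35.1% of all genes) and higher at 4 (9.30%, against 26.1%). The median change was −7.40 percentile points (SD 0.689 over the 4 library pairs, and −9.76 to −6.53 with 1 library left out), against −1.76 for all genes. WRKY genes gave −8.75, with 19 of 39 lower, so the lower ranks were not particular to MYB genes. These counts depend on the unequal length of the lists. With equal peak numbers, a count added after the data were seen, 15 of 43 MYB genes were lower (34.9%, against 28.2% of all genes) and 7 higher (16.3%, against 34.1%), the MYB median was −3.11 and that of all genes 1.27. The difference between the changes of the 2 proteins in brm-1 was 7 bound genes (exact permutation test, two-sided p = 0.167, where 0.0556 is the smallest possible), and was thus not shown.

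MYB6 changed most. Its BCL7B ranks were 29.2 and 19.2 in brm-1 against 89.9 and 93.5 without it, with fold enrichments of 2.45 and 2.25 against 5.63 and 6.24, and the best summit lay at +75 and +1022 bp in brm-1 against +4 and +30 bp. BRM itself, in the lines with the tagged BRM, was among the strongest at this gene, with ranks of 97.8 and 98.4 in bcl7ab and 96.7 and 97.3 in BRM, 250 to 549 bp past the start. MYB20 stood at 59.8 and 76.1 in brm-1 against 96.8 and 96.2, again at the TSS in each library (−42 to −23 bp). MYB98 stood at 42.1 and 76.1 in brm-1 against 98.1 and 97.6, and MYB101 of the GAMYB group at 26.7 and 31.6 against 57.8 and 67.5. The 4 genes that were higher in brm-1 were MYB67 (45.3 and 72.5 against 20.5 and 20.6), MYB83, a partner of MYB46 in secondary walls (53.6 and 63.9 against 31.5 and 49.9), MYB13 (80.2 and 85.0 against 63.1 and 66.0) and MYB26 (48.6 and 49.5 against 48.2 and 25.1). The best BCL7B summits of MYB83 and MYB13 were nearer to the noncoding RNA starts AT3G00260 and AT1G04447 in every library.

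Among stress and nutrient genes, BCL7B ranks were lower in both brm-1 libraries at 5 of the 7 retained genes and higher at none, counts too small to read beside the 51.2% of MYB genes and 35.1% of all genes that were lower. MYB2 had 66.3 and 65.4 in brm-1 against 72.9 and 84.5, at summits nearer to the start of AT2G47210. MYB44 had 22.3 and 7.94 against 29.5 and 43.3. Of 4 retained cuticle genes, 3 were lower, among them MYB16 and MYB106, which shape the cuticle and epidermal cells. The best BCL7B summits of both lay nearer to noncoding RNA starts than to their own, at MYB106 to AT3G00975. MYB16 had 38.7 and 55.6 in brm-1 against 59.0 and 62.2, and MYB106 had fold enrichments of 2.65 and 2.47 against 3.38 and 4.11, in lists whose median fold enrichment over all peaks was 2.80 and 2.78 in brm-1 against 3.38 and 3.39. The 4 GAMYB genes were all retained. Between the proteins in brm-1, 5 of 47 MYB genes moved opposite ways in every library (10.6%, against 7.01% of all genes), all with BCL7A up and BCL7B down (against 4.86% of all genes).

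**Figure D5:**
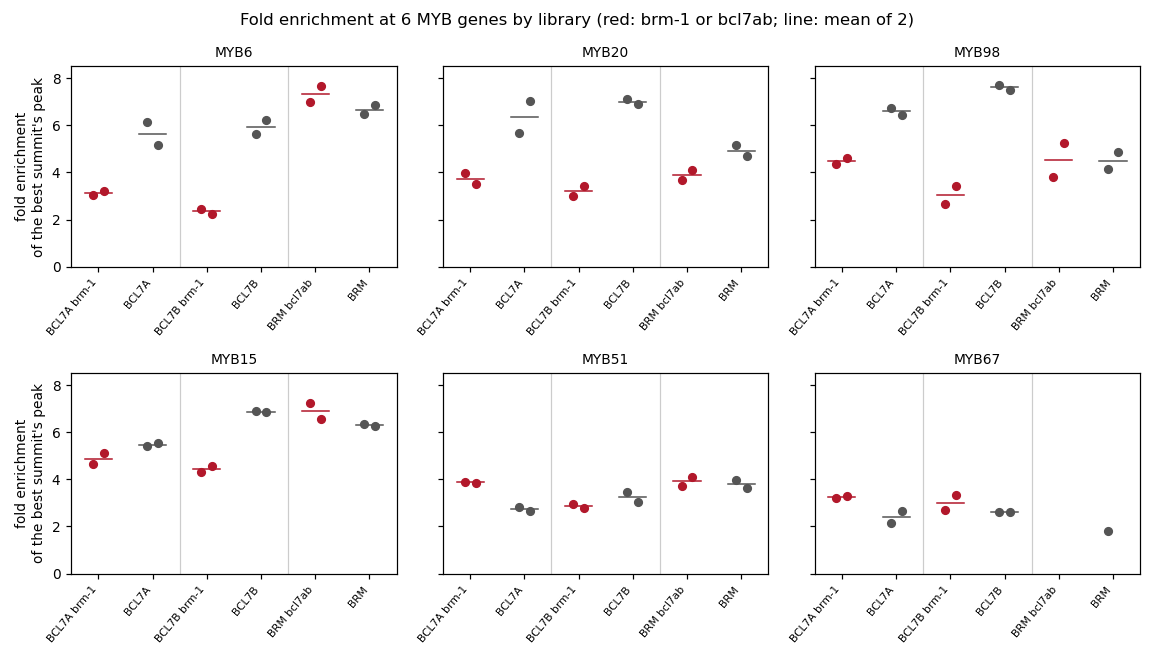
Fold enrichment of the best summit over local background in every library, for 6 MYB genes (MYB6, MYB20, MYB98, MYB15, MYB51 and MYB67), each mutant group left of its reference, with a line at the mean of 2 libraries and no point where no summit was called. MYB6 was at 2.25 to 3.23 in the brm-1 libraries of both BCL7 proteins and at 5.15 to 6.24 without brm-1, while MYB15 was between 4.32 and 7.23 throughout.

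The reverse comparison asks whether BRM summits near MYB genes are still called in bcl7ab. BRM was at 59.5 ± 3.54 MYB genes in bcl7ab and 65.5 ± 4.95 in BRM (SD, n = 2 each; ratio 0.908, exact permutation test, two-sided p = 0.667), and the counts overlapped. Of 59 genes bound by BRM, 49 were bound in both bcl7ab libraries, which is 83.1% (71.0% to 91.6%, against 87.0% of all genes), 6 in 1 and 4 in neither (6.78%, against 4.00%). Of 53 genes without BRM, 1 had gained it (1.89%, against 3.35%), MYB28, the main regulator of aliphatic glucosinolates (AT5G61420), with ranks of 12.5 and 23.6 at −625 and −617 bp. The lost genes all had BRM in the lower ranks. MYB60 (AT1G08810, chr1:2819065-2820478, minus strand), a guard cell gene that acts in stomatal opening, had no BRM summit in bcl7ab against ranks of 26.1 and 37.1 at −69 and +90 bp. MYB87 (AT4G37780, chr4:17758232-17759746, minus strand) had none against 30.9 and 44.6, and MYB9, a suberin regulator, none against 13.9 and 3.04. MYB106 had none against 1.34 and 0.489, at −1201 and +1753 bp. These MYB106 summits were nearer to the noncoding RNA starts AT3G00975 and AT3G01142. Their peaks had a −log10 q of 1.05 and 0.877, weaker than the q limit given by the authors. MYB106 thus counts among the 4 lost genes without a BRM site shared by the replicates.

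Of the 49 genes with BRM in all 4 libraries, the rank was higher in both bcl7ab libraries at 13 (26.5%, against 20.8% of all genes) and lower at 18 (36.7%, against 30.9%). The median change was −0.44 percentile points, within the SD of 0.961 over library pairs, against −1.19 for all genes. It has no stable size or direction, being −2.51 without BRM replicate 1, −2.04 without bcl7ab replicate 2 and 0.0856 with peaks of a −log10 q of at least 5. Both flavonol regulators with BRM were lower in bcl7ab, MYB111 (AT5G49330) at 20.1 and 8.87 against 39.6 and 57.3, and MYB12 (AT2G47460) at 5.85 and 17.1 against 33.1 and 42.7. MYB12 had no BCL7 summit in any library, and MYB111 had both BCL7 proteins in all libraries. Other genes were higher in bcl7ab. MYB21, a stamen regulator, had 93.2 and 95.0 against 80.5 and 62.1, with summits at −1916 to −1839 bp that were nearest to the TSS of the long noncoding RNA AT3G05305. MYB57, its close relative, had 61.5 and 66.9 against 45.4 and 47.8, and MYB43, a lignin regulator, 79.8 and 86.3 against 71.8 and 42.7. The other large changes were at MYB38 (RAX2), which acts in axillary meristems, with 37.1 and 62.8 in bcl7ab against 74.1 and 70.4, at MYB47 with 27.9 and 17.1 against 43.5 and 43.7, and at MYB101 with 32.7 and 46.3 against 23.8 and 19.1. Best summits of MYB47 were nearer to noncoding RNA starts in both bcl7ab libraries and in BRM replicate 1. In BRM replicate 2 its best summit lay at +42 bp. Best summits differed in position at other genes too. Mean offsets in bcl7ab and BRM were +1660 and +1121.5 bp at MYB111 and +62 and +481 bp at MYB12. They were −1642.5 and −305.5 bp at MYB43 and +251.5 and −40 bp at MYB38. The ranks of these genes thus compare different positions in part.

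A gene can keep a summit while the summit moves. A stricter count, added after the data were seen, asked for a summit within 200 bp of the same position in both mutant libraries. BCL7A passed it in brm-1 at 45 of 51 MYB genes (88.2%, against 89.4% of all genes), BCL7B in brm-1 at 35 of 49 (71.4%, against 76.7%) and BRM in bcl7ab at 23 of 42 (54.8%, against 69.8%). The shares differed with the distance from the start. Within 500 bp of the TSS, BCL7B kept its position at 8 of 16 MYB genes (50%, against 79.1% of all genes) and BRM at 9 of 21 (42.9%, against 70.9%), whereas more than 500 bp upstream BCL7B kept it at 20 of 23 (87.0%, against 73.7%) and BRM at 10 of 13 (76.9%, against 70.1%). BCL7A kept it at 15 of 18 within 500 bp (83.3%, against 90.4%) and at 23 of 26 upstream (88.5%, against 88.6%). Between BRM replicates of 1 genotype, the summits of a MYB gene lay within 100 bp at 62.3% of genes in bcl7ab and 54.2% in BRM, so BRM positions at MYB genes also varied within a genotype. No test was made of these shares.

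Genes of proteins that work with MYB factors were looked at beside them. The shares of all genes were 65.8% in brm-1 and 63.6% without it for BCL7A, and 55.3% and 61.1% for BCL7B. For BRM they were 50.2% in bcl7ab and 52.6% in BRM. Of 5 genes of the bHLH and TTG1 partners, which form complexes with MYB proteins in trichomes and pigment synthesis, BCL7A was at 4 in brm-1 and 3 without it, BCL7B at 2 and 4, and BRM at 2 in bcl7ab and 4 in BRM. BCL7B at EGL3 and MYC1, and BRM at MYC1, were still found in 1 of 2 mutant libraries. These counts are small and were not tested. TT8, the bHLH partner of TT2, had no BRM summit in bcl7ab against a mean rank of 28.3 in BRM. Of 6 genes for single-repeat R3 MYB repressors, 4 had each BCL7 protein in each genotype, and MYBL2, a repressor of anthocyanin synthesis, had a mean BCL7B rank of 30.8 in brm-1 against 67.5. Of the 5 MYB3R genes, which carry more repeats and act in the cell cycle, 4 had each BCL7 protein in each genotype.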

How the data were processed

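The 12 anti-GFP ChIP-seq peak lists (2 replicates for each of 6 groups) were used as deposited. The authors trimmed reads with fastp, aligned them to TAIR10 with Bowtie 2 and kept perfectly and uniquely mapped reads. They called peaks per library with MACS2 (2.1.1 per the labels), by their account at q 0.05. The BRM lists also hold peaks weaker than that, down to a −log10 q of 0.475 to 0.577. The deposited values used were the fold enrichment (a ratio) at each summit over local background and the −log10 p and −log10 q of each peak, with the summit position. Extra columns of the BCL7 files were not used.

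Peaks on the 5 nuclear chromosomes were assigned to genes of the TAIR10.1 RefSeq annotation (chromosome lengths equal to TAIR10) by summit, within 2 kb of the TSS. For 17 MYB genes the annotated start is marked as incomplete. Named were the MYB genes lost or gained in a comparison, the 4 largest rank changes in each direction without overlap, the 5 highest mean ranks, and members of each list. Beyond these rules, MYB2, MYB16, MYB44, MYB91, MYB106 and MYB119 were chosen after their values were seen. Retained, lost and gained were called over both replicates, and counts per library were compared by exact permutation tests. Members and lists were chosen with earlier results of these data known. Alternatives were a 1 kb window, a −log10 q of at least 5, interval overlap, nearest starts, rank by p, equal peak numbers, omission of each library and a replicate block. The scripts were tested on simulated data. Python 3.11.15, NumPy 2.4.6, pandas 2.3.3 and SciPy 1.17.1 were used. The labels number the replicates as immunoprecipitations and the study calls its replicates biological. Depth per list was not used, so intervals cover counting of genes only. A sequence withheld from this text is not reported here.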

Additional observations from a re-analysis of the deposited data

Results flagged for a closer look

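In 5 MYB genes the BCL7 proteins moved opposite ways in brm-1 in every library, BCL7A up and BCL7B down, of 47 genes that could be compared (716 of 14726, or 4.86%, of all genes moved in this direction). The difference was not tested gene by gene. MYB122 had gained BCL7A in brm-1 (mean rank 22.0) and lost BCL7B (mean rank 20.9 without brm-1), at summits of −1712 to −1605 bp that were nearer to the start of AT1G74070. MYB56 had a BCL7A rank change of 33.8 percentile points, while BCL7B, with a mean rank of 51.6 without brm-1, was lost. The best of these MYB56 summits were, in all libraries but 1, nearer to the noncoding RNA AT5G02775, and those of MYB16 to AT5G02375. MYB56 also had summits nearest to its own start. The BCL7B lists in brm-1 were shorter, and ranks were not set to equal peak numbers here. At MYB111 the changes were 23.4 for BCL7A and −16.5 for BCL7B, at MYB16 they were 9.05 and −13.5, and at MYB21 they were 0.880 and −2.41.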

How the results depend on the processing

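The number of MYB genes with BCL7A in brm-1 relative to BCL7A (1.02) has no stable direction: it was 0.880 with a 1 kb window, 0.983 with a −log10 q of at least 5, 0.948 with nearest starts only and 0.975 with equal peak numbers. The share with BCL7A retained was 81.1% with the 1 kb window. The BCL7B rank change kept its direction in every alternative, at −9.66 with 1 kb, −8.88 with the stricter q, −5.74 with interval overlap, −6.55 with nearest starts, −9.86 with rank by p and −3.11 with equal peak numbers, and the BRM rank change was −1.74 with 1 kb and 0.0856 with the stricter q. The BCL7B ratio (0.895) was 0.981 with equal peak numbers. BRM retained at the same position was 54.8%, an alternative chosen after seeing the data, as was the count over genes with no other TSS within 2 kb (92.1%, 80.0% and 81.8% retained for BCL7A, BCL7B and BRM). Genes with all 3 proteins numbered 23 with 1 kb. Offsets as medians with 1 kb, nearest starts and the summit nearest to the TSS were −245, −246 and −245 bp for BCL7A in brm-1, for BCL7A −255, −362 and −292 bp, −454, −510 and −510 bp for BCL7B in brm-1, −204, −249 and −244 bp for BCL7B and 35, 13.5 and 62 bp for BRM in bcl7ab; for BRM they were 58 bp with 1 kb and 62 bp with the nearest summit. Leaving out 1 library in turn gave rank changes of −0.000227 to 0.929 for BCL7A, −9.76 to −6.53 for BCL7B and −2.51 to −0.292 for BRM, ratios of 1.00 to 1.03 for BCL7A, 0.879 to 0.911 for BCL7B and 0.862 to 0.960 for BRM, retained shares of 86.9% to 94.6%, 74.1% to 88.7% and 73.9% to 89.8%, and 38 to 43 genes with all 3 proteins. With the replicate number as a block the ratios were 1.02, 0.895 and 0.908 (exact permutation test, p of 1, 0.5 and 1, where 0.5 is the smallest possible). Rank deviations of same-numbered libraries were not correlated across genes (correlations of 0.00784, −0.00279 and −0.00397). That does not show whether such libraries shared a harvest or a run. The causes were not tested.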

Other observations

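Some MYB genes had a best summit nearer to the start of a long noncoding RNA than to their own, with 2 to 8 such genes in a library. MYB21 was nearest to AT3G05305 and MYB16 to AT5G02375, and for both the summit lay at −1843 to −1604 bp in the BCL7 libraries. MYB21 had BCL7A ranks of 99.3 and 99.2 in brm-1 and 98.3 and 98.5 without it, and BCL7B ranks of 97.7 and 96.2 in brm-1 and 99.2 and 99.5 without it. MYB119, a female gametophyte regulator, had strong BCL7A summits at −1468 to −1428 bp, with ranks of 86.9 and 79.1 in brm-1 and 88.9 and 84.3 without it, but BRM ranks of 25.2 and 8.92 in bcl7ab and of 10.3 in 1 BRM library, with no BRM summit in the other.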
